A study of Betula luminifera with 4 samples.

Results

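The proteins of the cytosolic ribosome were followed in roots and shoots of the birch Betula luminifera, grown with and without phosphate. Members were the assembled genes, here called contigs, whose best protein match bears the name of a 40S, a 60S or a 60S acidic ribosomal protein and whose match is to a plant, either a walnut (Juglans) protein or an Arabidopsis thaliana protein; names with "mitochondrial" or "chloroplast" were dropped. These criteria chose 161 of 76899 assembled genes, 84 for the large (60S) and 77 for the small (40S) subunit. A further 553 rows bear the same names without that plant match and were left out, so the levels below are those of the members and not of all transcripts that code for a protein.

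Each ribosome is built from a large and a small subunit. Each subunit is built from ribosomal RNA and a set of proteins, most of which are needed in equal numbers. The small subunit decodes the messenger RNA, and the large one joins the amino acids; a flexible stalk of acidic proteins on the large subunit recruits the translation factors. In plants most ribosomal proteins are coded by small families of near-identical genes. Because ribosomal RNA holds a large share of the cell's phosphorus, ribosome content is often studied in plants short of phosphate.

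The plants were of a single clone, G49#, propagated in tissue culture and moved to sand as seedlings 2 months old. All had received the normal medium for 2 weeks and then deionized water for 2 weeks. The control group (CK) was then given modified MS medium with 1.25 mM KH2PO4, and the phosphate-deficient group (LP) the same medium without KH2PO4, with K2SO4 added for its potassium. Poly(A) RNA was sequenced in 4 libraries, a root and a shoot library for each medium, where shoot RNA was an equal mixture from stem and leaf. The sources used here give 54 plants in all, but neither the treatment's duration nor the plants behind a library.

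Each group is 1 library, so no difference below has a replicate check, and no p-value is given. Levels are TPM, a share of all transcripts in the library that is already divided by length. A member was called higher or lower when its log2 ratio, taken after adding 1 TPM to both values, was 1 or more in size and the larger of the 2 values reached 1 TPM. In bulk tissue, fewer cells of a type and less RNA per cell cannot be told apart. Because TPM add up to a fixed total, RNA of other organisms lowers every birch value of a library. Plant-matched genes held 52.2% (CK) and 40.5% (LP) of the root TPM and 63.8% (CK) and 59.7% (LP) of the shoot TPM. Scaled values below are relative to the median of 11284 plant-matched genes that reached 1 TPM in each of the 4 libraries, which stood 0.62 log2 units lower in LP than in CK roots and 0.12 higher in LP than in CK shoots.

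The labelled tissues were checked by marker genes. Shoot markers (25 photosynthesis genes of the nucleus) had sums of 22339 and 15797 TPM in CK and LP shoots and of 416 and 3901 TPM in CK and LP roots. A single chlorophyll a-b binding protein (OsI_012078, 3698 TPM) held most of the LP root value; without it the same list summed to 203 TPM there and 229 in CK roots. Root markers (15 genes) were less clear. Their sum was 322 TPM in each root library, against 161 and 186 in CK and LP shoots. Under CK 4 of 13 tested were higher in roots than in shoots and 7 lower. Under LP 6 of 15 were higher in roots and 7 lower, so most were not higher in roots. Without the transcription factor AIL1 (5.27 TPM in CK and 182 in LP roots) the root sums were 317 and 140 TPM. Of markers higher in roots, Casparian strip membrane protein 1 (root endodermis) stood at 94.3 TPM in CK and 20.0 in LP roots. It was listed at 0 in CK shoots and stood at 0.0800 in LP shoots.

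The 161 members named 69 different ribosomal proteins, 39 of the large and 30 of the small subunit. Of these, 15 were represented by 1 contig and 54 by several, up to 6 for S3. Not every ribosomal protein had a member; L24 and the stalk protein P2 are examples without one. Member contigs were 201 to 1584 bp long with a median of 633 bp. The Nr match of 112 members was named as a ribosomal protein or ubiquitin, and 49 had another Nr name. All 161 reached 1 TPM in some library, and 112 were above 0 in all 4. Near-identical family members may share reads, and 33 members lie in an assembly component together with another member, so contigs of 1 protein were also summed.

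Ribosomal protein RNA was most abundant in CK shoots and least abundant in LP roots. Summed over the 161 members it was 16266 and 11765 TPM in CK and LP shoots and 11248 and 4393 TPM in CK and LP roots. As a share of the plant-matched TPM this was 2.55%, 1.97%, 2.16% and 1.09% in the same order. LP therefore stood below CK in both tissues, 2.56-fold in roots and 1.38-fold in shoots. On the log2 scale the sums differed by -1.36 in roots and -0.47 in shoots, or -0.74 and -0.58 when scaled.

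**Figure D1:**
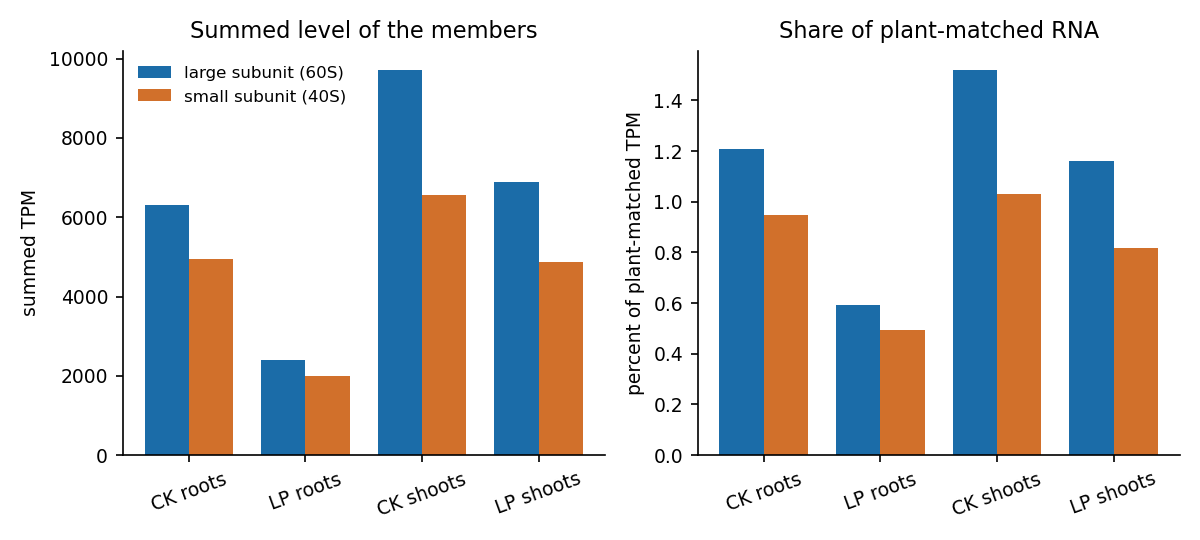
Summed TPM of the large (blue) and small (orange) subunit members in each of the 4 libraries (left) and the same sums as a percent of all plant-matched TPM (right); each bar is 1 library and has no error. In both panels the LP bar is lower than the CK bar of the same tissue for both subunits, and LP roots are lowest with 2401 TPM for the large and 1992 TPM for the small subunit.

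Most proteins followed that order. Of the 69 protein sums, 49 were highest in CK shoots and 51 lowest in LP roots. Both subunits shared it: 29 of 39 large and 20 of 30 small subunit proteins peaked in CK shoots, and 28 and 23 were lowest in LP roots. CK roots held the highest sum of 14 proteins. These counts use TPM as deposited. All plant-matched genes together also summed highest in CK shoots (637824 TPM) and lowest in LP roots (404661 TPM). How many single plant-matched genes had that order was not counted, so the counts are not read as particular to ribosomal proteins.

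The large subunit's summed level was 1.27 and 1.21 times that of the small in CK and LP roots, and 1.48 and 1.41 times in CK and LP shoots. The excess came with a larger number of proteins, 39 against 30. Per protein, the median sum of large subunit proteins was 123 TPM in CK roots and that of small subunit proteins 176 TPM. In LP roots these medians were 46.6 and 54.2 TPM, in CK shoots 202 and 234 TPM, and in LP shoots 168 and 167 TPM. The ratio of the sums differed more between tissues than between media. It depends on the choice of members: when rows of the same names matched to other land plants were added, a set chosen after the data were seen, it became 0.907 in LP roots.

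**Figure D2:**
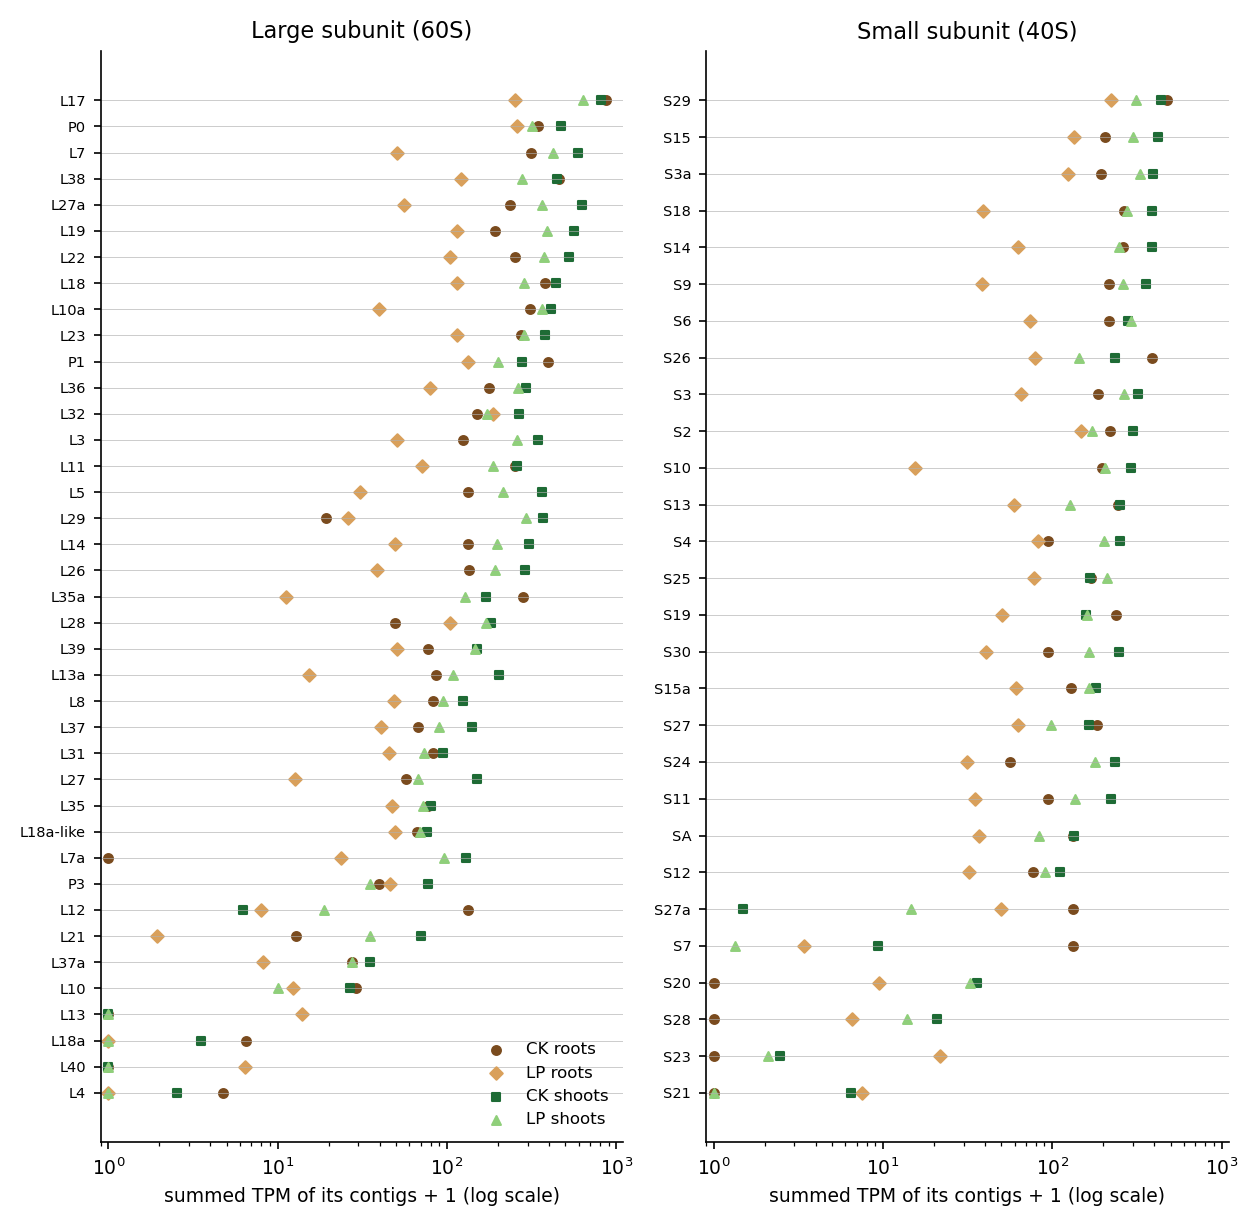
Level of each ribosomal protein in the 4 libraries, as the summed TPM of its contigs plus 1 on a log axis; proteins of the large (left) and small (right) subunit are ordered by their mean, each symbol is 1 library, and 67 of the 69 proteins are drawn. LP roots (light brown diamonds) lie farthest left and CK shoots (dark green squares) farthest right for most of them. Over all 69 the numbers are 51 and 49. Values are as deposited, and the sum of all plant-matched genes was also lowest in LP roots and highest in CK shoots.

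The most abundant members belonged to both subunits. RPL17B, a contig of 625 bp for L17, which lines the tunnel through which the new chain leaves the ribosome, stood at 732 and 234 TPM in CK and LP roots and 691 and 507 TPM in CK and LP shoots. In roots it was 1 of the members called lower, with a log2 ratio of -1.64; in shoots its ratio was -0.44. The more abundant of 2 RPL7B contigs, for L7 of the large subunit, stood at 295, 36.9, 420 and 340 TPM in the order CK roots, LP roots, CK shoots, LP shoots, which is kept below. The 1412 bp contig of P0, for the base of the stalk, stood at 258, 55.1, 376 and 243 TPM. All 3 were lowest in LP roots, while their shoot ratios missed the size rule.

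Of the other large subunit members in that rank, RPL27AC (L27a) stood at 134 and 27.6 TPM in CK and LP roots and 463 and 237 TPM in CK and LP shoots. RPL22B (L22) had 140, 65.0, 363 and 276 TPM. Both had higher levels in shoots. The stalk protein contig RPP1A, of 890 bp, instead was highest in CK roots, with 307 TPM there against 121, 248 and 178 in the other libraries.

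Among small subunit members the 1160 bp contig of S3a led, with 194 and 99.5 TPM in CK and LP roots and 392 and 329 TPM in CK and LP shoots. RPS10C (S10, 611 bp), a protein of the beak of the small subunit, stood at 189, 14.4, 288 and 200 TPM. Its level in LP roots was far below those in the other 3 libraries. RPS29A (S29, a zinc-binding protein) had 293, 120, 223 and 148 TPM. RPS26A (S26, near the exit of the messenger RNA channel) had 215, 78.6, 235 and 143 TPM for its 703 bp contig. RPS3C (S3, at the entry of that channel) had 112, 54.3, 283 and 234 TPM.

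Without phosphate, root libraries differed strongly in these genes and mainly downward. In LP against CK roots 88 of 152 members tested were lower and 30 higher, and 34 passed the rule in neither direction. The background was 35.3% lower and 35.7% higher over plant-matched genes, and 22.4% lower and 64.2% higher over all genes. Over all 161 members the median log2 ratio was -1.24 (95% interval over members, -1.62 to -0.88), against 0.00 over plant-matched genes. When scaled, 69 members were lower and 34 higher, with a median of -0.67, beside 26.7% and 42.6% of plant-matched genes.

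Values of 0 weighed on the upward calls. Of the 30 members higher in LP roots 23 were listed at 0 in CK roots, and of the 88 lower ones 15 were listed at 0 in LP roots. Among the 115 members above 0 in both root libraries, 73 were lower and 7 higher, and 96 had a lower value in LP (83.5%). Of 14395 plant-matched genes above 0 in both, 5721 were lower and 2727 higher, and 63.1% had a lower value in LP. When scaled, 76.5% of these members and 50.2% of these genes did. The median log2 ratio was -1.52 (-0.92 scaled) for these members and -0.55 (-0.01 scaled) for these genes. Abundant genes gave a like picture: of 76 members with a mean of at least 50 TPM, 48 were lower and 3 higher with a median of -1.47. The 2010 plant-matched genes of that abundance had a median of -0.66, with 832 lower and 294 higher of 1980 tested.

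In shoots the members differed little, but mostly in 1 direction. Of 139 tested, 23 were lower in LP shoots, 9 were higher and 107 passed in neither direction. Plant-matched genes were lower in 20.5% and higher in 23.9% of cases, and all genes in 23.0% and 40.1%. The share of members lower is thus no greater than the background; what differed was the small shift of most members. Of 128 members above 0 in both shoot libraries, 111 had a lower value in LP (86.7%), against 49.1% of 20640 plant-matched genes. The median over all members was -0.44 (95% interval over members, -0.53 to -0.30), and 0.00 over plant-matched genes. With scaling 34 were lower and 8 higher, beside 21.9% and 21.8% of plant-matched genes, and the median was -0.55. None of the 76 abundant members was higher and 7 (9.21%) were lower, with a median of -0.52. Of plant-matched genes of that abundance 10.2% were higher and 7.67% lower, with a median of 0.03, so the share called lower was near the background.

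The order of members by level was kept closely between the shoot libraries and loosely between the root libraries. Spearman's rho across members, which are not independent replicates, was 0.96 between CK and LP shoots (128 members) and 0.67 between CK and LP roots (115 members). Across the 39 large subunit proteins the SD of the log2 ratio was 0.53 in shoots and 1.82 in roots; for the 30 small subunit proteins it was 0.96 and 2.02.

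**Figure D3:**
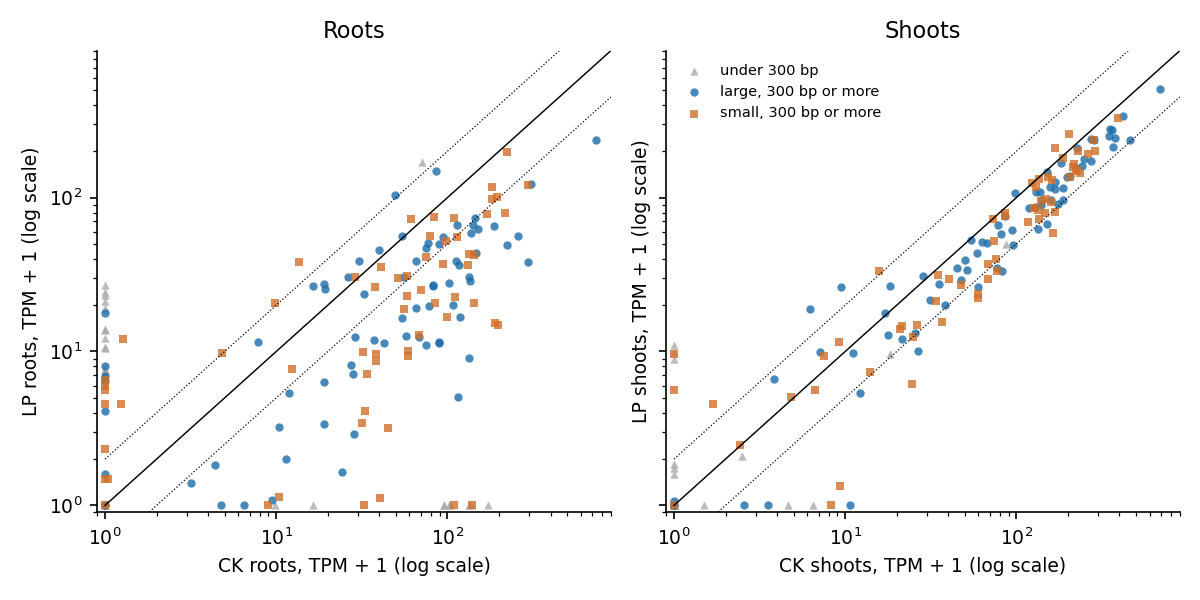
Each member's TPM plus 1 in LP against CK, for roots (left) and shoots (right), on log axes; blue circles are large and orange squares small subunit contigs of 300 bp or more, grey triangles contigs under 300 bp. The solid line marks equal values and the dotted lines a 2-fold ratio; shoot members lie in a narrow band mostly just below equality, while root members spread widely and mostly below it, with a column of members at 0 in CK roots.

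Once contigs were combined, the shifts of both subunits lay close together. In roots the median log2 ratio of contigs was -1.52 for the large (95% interval over members, -1.74 to -0.97) and -0.91 for the small subunit (-1.57 to -0.50), intervals that overlap. By protein sums the medians were -1.29 and -1.24. In shoots they were -0.48 for the large and -0.49 for the small subunit. Nearly every protein contributed to the shoot value, since 36 of 39 large and 26 of 30 small subunit proteins had a ratio below 0. In roots 32 of 39 and 25 of 30 did. Of single plant-matched genes above 0 in both libraries, 63.1% had a lower LP value in roots and 49.1% in shoots.

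**Figure D4:**
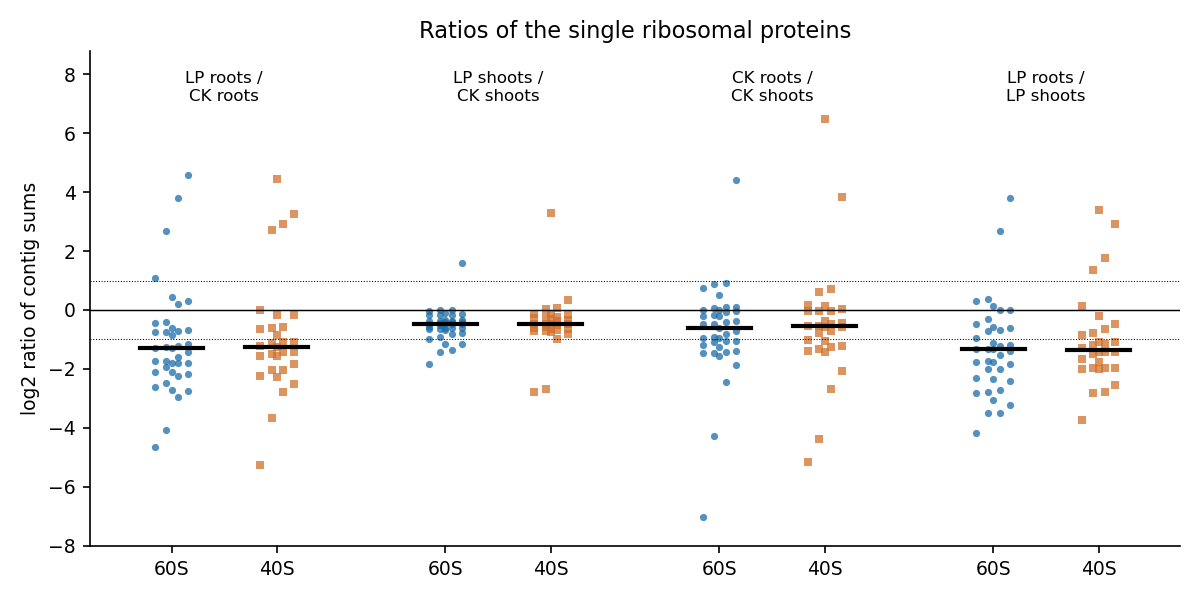
Log2 ratio of contig sums for each of the 39 large (60S, blue) and 30 small (40S, orange) subunit proteins in the 4 comparisons; the black bar is the median, the dotted lines mark the size rule. The medians of both subunits nearly coincide in each comparison, for example -0.48 and -0.49 for LP against CK shoots, where the points lie closest together.

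By role, the stalk came out unevenly. Its base P0 summed to 343 and 259 TPM in CK and LP roots and 471 and 317 TPM in CK and LP shoots. The LP root value rests largely on a 265 bp contig whose best Nr match is a liverwort protein, at 69.6 and 169 TPM in CK and LP roots; the P0 contigs of at least 300 bp summed to 273 and 80.8 TPM. P1 summed to 395 and 132 TPM in CK and LP roots, and to 278 and 198 TPM in CK and LP shoots. P3, a stalk protein of plants, was lower in LP shoots, with 76.3 TPM in CK and 34.0 in LP, while its root values were 38.9 and 44.8 TPM. P3 is therefore the stalk protein that passed the rule in shoots and not in roots, whereas P1 passed it in roots alone, a call lost on scaling (log2 ratio -0.96); the difference between tissues was not tested.

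L5 and L11 bind the 5S ribosomal RNA. L5, a single contig of 1222 bp, stood at 132 and 29.6 TPM in CK and LP roots and 364 and 212 TPM in CK and LP shoots. L11 summed to 250, 70.4, 258 and 187 TPM, and to 147 TPM in CK roots without a 205 bp contig seen only in that library. Both were lower in LP roots, with log2 ratios of -2.12 and -1.81, and both missed the rule in shoots, at -0.78 and -0.47. L10, a protein added late to the large subunit, was lower in both tissues: its 380 bp contig SG12 stood at 28.0 and 11.4 TPM in CK and LP roots and at 25.8 and 9.09 TPM in shoots. Scaled, its log2 ratio was -0.64 in roots, short of the rule, and -1.50 in shoots.

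S6, which the S6 kinase of the TOR pathway phosphorylates, differed between its contigs. The 1126 bp contig of RPS6B stood at 108 and 73.1 TPM in CK and LP roots and 202 and 258 TPM in CK and LP shoots. Its value was higher in LP than in CK shoots, though short of the rule. The 709 bp contig stood at 108 TPM in CK roots and was listed at 0 in LP roots, with 76.0 and 32.3 TPM in CK and LP shoots. Summed, S6 was lower in LP roots (log2 ratio -1.55, or -0.94 and short of the rule when scaled) and level in shoots (0.06).

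S27a and L40 are made as fusions with ubiquitin, from which they are cut. The S27a sum was 132 and 49.0 TPM in CK and LP roots and 0.490 and 13.6 TPM in CK and LP shoots, a pattern unlike that of most members, with roots far above shoots. L40 was represented by a single 371 bp contig, at 5.42 TPM in LP roots and listed at 0 elsewhere. Ubiquitin fusion genes often carry a ubiquitin name, which the rule would not find, so these values cover only part of such transcripts.

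Other small subunit proteins, near the messenger RNA path or on the platform, were lower in LP roots as well. SA, related to the laminin receptor of animals, stood at 131 TPM in CK roots and 35.7 in LP roots, and at 133 and 82.6 TPM in CK and LP shoots. S3 summed to 185, 64.4, 318 and 263 TPM in the order CK roots, LP roots, CK shoots and LP shoots. S14 summed to 260, 62.0, 388 and 246 TPM. All 3 passed the rule in roots and none in shoots; when scaled, S3 missed it in roots as well (log2 ratio -0.89).

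Of the 69 protein sums, 43 were lower and 8 higher in LP roots; when scaled, 26 were lower and 9 higher, beside the plant-matched shares given above for single genes. The steepest declines were S7, from 131 TPM in CK to 2.42 in LP roots, L35a, from 279 to 10.2 TPM, and L12, from 133 to 7.01 TPM. Each of these CK root sums includes a contig under 300 bp found above 0 in no other library. Without it S7 stood at 30.9 and L35a at 142 TPM in CK roots, still lower in LP, while L12 was listed at 0 there and was higher in LP. Most of this L35a value came from a 1112 bp contig, at 115 and 4.03 TPM in CK and LP roots. Its Nr match is a UDP-glycosyltransferase, so its identity is uncertain. Of the 8 proteins higher in LP roots 7 were listed at 0 in CK roots, among them L7a (22.7 TPM in LP roots, and 128 and 94.4 TPM in CK and LP shoots), S23 (20.8, 1.48 and 1.09 TPM) and L13 (12.9 TPM in LP roots alone). The exception, named here after its values were seen, was L28, whose 978 bp contig stood at 48.2 TPM in CK and 103 TPM in LP roots. Of the S23 value in LP roots, 11.2 TPM came from a 252 bp contig of uncertain identity. Its Nr match is a basic leucine zipper and W2 domain-containing protein. The other S23 contig is also short, at 246 bp.

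In LP shoots 8 protein sums were lower and 2 higher. The lowest ratios were those of S7 (8.31 TPM in CK and 0.340 in LP), S21 (5.46 TPM and listed at 0) and L18a (2.52 TPM and listed at 0). All 3 are low members, where few fragments decide a value. S27a and L12 (5.27 and 17.8 TPM) were higher, and S25 came next with 166 TPM in CK and 209 in LP shoots, short of the rule. The overlap of calls between tissues was not counted over plant-matched genes and is not read as particular to the members. Lower in both tissues were 6 proteins, which are 6 of 43 in roots and 6 of 8 in shoots. Among contigs, 16 were lower in both, of 88 in roots and 23 in shoots, and 2 were higher in both. One of these 2, RPS15AE (S15a, 761 bp, singled out after its values were seen), stood at 12.5 and 37.4 TPM in CK and LP roots and at 14.8 and 32.5 TPM in shoots.

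Short contigs accounted for the most extreme ratios. Of 26 members under 300 bp, 1 was above 0 in all 4 libraries and 17 in just 1 library, 7 of these in CK roots, 7 in LP roots and 3 in LP shoots. Of 100 members of at least 500 bp, 92 were above 0 in all 4 libraries. The largest values in CK roots alone belonged to RPS26A (204 bp, 172 TPM), RPL35AA (211 bp, 137 TPM) and RPL12C (217 bp, 133 TPM), which correspond to about 195, 169 and 176 fragments. The 418 bp RPS13 contig had 138 TPM in CK roots, was listed at 0 in LP roots and had 59.0 and 22.7 TPM in CK and LP shoots. In LP roots the corresponding contigs included an S3a contig of 213 bp (23.5 TPM), RPL8C (214 bp, 22.2 TPM) and RPS2C (237 bp, 20.4 TPM), each listed at 0 in CK roots. These correspond to 47, 45 and 57 fragments. A 0 at 201 bp allows up to 2.76 and 1.81 TPM in CK and LP roots, the worth of 3 fragments, which covers counting error only.

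In shoots the extremes were lower in level. RPL19A (315 bp) stood at 9.69 TPM in CK shoots and was listed at 0 in LP shoots, RPS3A (400 bp) at 7.31 TPM and 0, and RPS7A (405 bp) at 8.31 and 0.340 TPM. RPL17A (278 bp, 10.1 TPM), a 270 bp contig of RPS27AA (8.94 TPM), RPS19A (345 bp, 8.63 TPM) and RPL7AA (271 bp, 7.98 TPM) were above 0 in LP and listed at 0 in CK shoots. All of these lie below the median member level of their richer library, 66.2 TPM in CK shoots and 36.1 in LP shoots.

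In sum, roots held less ribosomal protein RNA than shoots. Under CK 55 of 144 members tested (38.2%) were lower in roots than in shoots and 17 (11.8%) higher. Their median log2 ratio was -0.41. Over plant-matched genes 52.3% were lower and 19.7% higher, with a median of -0.63. Scaled, 47 members (32.6%) were lower and 17 (11.8%) higher, beside 50.9% and 20.8% of plant-matched genes. The share of members lower was thus below the background under CK. Of 120 members above 0 in both libraries 90 had a lower value in roots, against 8172 of 14689 plant-matched genes (55.6%), with medians of -0.58 and -0.22. Among genes with a mean of at least 50 TPM the medians were -0.75 for members and -0.05 for plant-matched genes, with 40.8% and 28.2% lower. Under LP 96 of 149 members (64.4%) were lower in roots and 23 (15.4%) higher, beside 55.4% and 17.3% of plant-matched genes. The median was -1.43 for members and -1.10 for plant-matched genes. Scaled, 64 members (43.0%) were lower and 30 (20.1%) higher, beside 43.4% and 25.7% of plant-matched genes. The scaled share of members lower was thus near the background under LP. Root and shoot comparisons share libraries with the comparisons of media and are no separate evidence.

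Some proteins had a tissue pattern of their own. L29 summed to 18.2 TPM in CK roots and 24.9 in LP roots, against 369 and 291 TPM in CK and LP shoots. S24 had 55.1 and 30.2 TPM in roots and 233 and 179 TPM in shoots. S27a was the clearest case of the opposite kind. L17, S29 and L38 were about level between the tissues under CK, with log2 ratios of 0.10, 0.12 and 0.06. These proteins, L17 excepted, were picked for their values.

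Related gene lists, limited to plant-matched genes that reached 1 TPM in any library, set these shifts in context. Plastid ribosomal proteins went the same way in shoots: 14 of 44 tested were lower and 4 higher, their sum was 4215 TPM in CK and 2439 in LP shoots, and their median log2 ratio was -0.59. In roots 16 of 40 were lower and 12 higher with a median of -0.09, or 13 and 13 with a median of 0.00 when scaled. Mitochondrial ribosomal proteins had a median of 0.02 in shoots (3 lower and 5 higher of 17) and of -1.57 in roots (9 lower and 3 higher of 15). Ribosome biogenesis genes, which process ribosomal RNA and assemble the subunits, had a median of 0.09 in shoots (6 lower and 10 higher of 62). In roots 26 of 60 were lower and 17 higher, with a median of -0.32, but when scaled 17 were lower and 20 higher with a median of 0.00. NRPA1, the largest subunit of RNA polymerase I, stood at 154 TPM in CK and 5.90 in LP roots. It is named outside the naming rules and does not stand for the list. Among the 6 most abundant genes of the list its root log2 ratio was the lowest, -4.49 against -1.35 to -1.89 for the rest.

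Translation initiation factors had medians of 0.00 in roots and 0.03 in shoots, with 15 lower and 13 higher of 47, and 3 lower and 5 higher of 49; with scaling the root balance turned, to 10 lower and 18 higher with a median of 0.57. Elongation factors numbered 12 and had medians of -0.33 in roots (5 lower and 2 higher of 10, or 3 and 3 when scaled) and 0.00 in shoots (2 and 2 of 9). Elongation factor 2 (LOS1), the factor that moves the ribosome along, differed between contigs. Its 3032 bp contig stood at 373 TPM in CK and 98.5 in LP roots and at 338 and 360 TPM in CK and LP shoots. A contig of 298 bp stood at 191 and 183 TPM in CK and LP roots and at 248 and 85.2 TPM in CK and LP shoots. RACK1, a scaffold protein on the small subunit, stood at 99.5 and 22.8 TPM in roots and at 242 and 127 TPM in shoots. Genes of the TOR pathway, which controls ribosome production, ran the other way in roots, with 7 of 12 higher, 1 lower and a median of 1.10; in shoots 2 of 11 were higher and 1 lower.

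**Figure D5:**
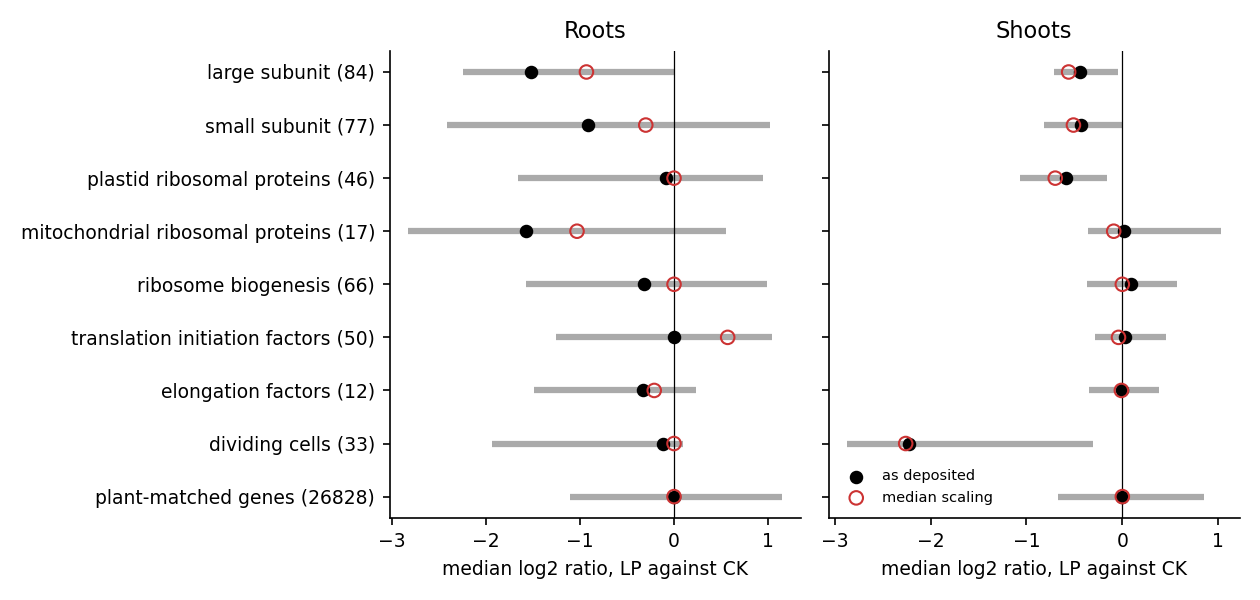
Median log2 ratio of LP against CK for both subunits, related gene lists and all plant-matched genes, in roots (left) and shoots (right); numbers in brackets are genes that reached 1 TPM in any library, filled points are values as deposited, open circles scaled values, grey bars the interquartile range over genes. A gene at 0 in both libraries counts as a ratio of 0. In shoots both subunits and plastid ribosomal proteins lie below 0 (-0.44, -0.43 and -0.59) while mitochondrial ribosomal proteins and initiation factors lie at 0.02 and 0.03.

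Other genes moved with the members. A list meant for dividing cells (33 histone, cyclin and related genes) summed to 3578 TPM in CK shoots and 1190 in LP shoots, with 19 of 32 lower and 1 higher. In roots it summed to 703 and 317 TPM, with 15 of 20 lower and 2 higher. The list did not separate histone variants, so its sums do not measure dividing cells alone. Its most abundant gene, HTR4 (histone H3.3), stood at 227 and 58.6 TPM in CK and LP roots and 508 and 376 TPM in CK and LP shoots. Genes of this list at 0 numbered 14 (CK) and 12 (LP) in roots and 1 (CK) and 3 (LP) in shoots. Their part in the ribosomal protein shifts was not tested. Rows with no protein match held 29.0% (CK) and 43.3% (LP) of the root TPM and 15.7% and 18.3% of the shoot TPM, and their part was likewise not tested.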

How the data were processed

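Poly(A) RNA of 4 libraries was sequenced as read pairs, and the authors deposited 1 table of TPM per assembled gene with lengths and protein matches, per the file headers. Per the submitters' processing notes the tools included cutadapt 1.9 and FastQC. The names of the assembler, the aligner and the program that computed TPM were not given in the sources used here. TPM carry no depth. For single-transcript contigs under 300 bp the worth of 1 fragment was read from the smallest common step (0.920, 0.603, 1.24 and 0.866 TPM at 201 bp in CK roots, LP roots, CK shoots and LP shoots), which gave the fragment numbers and limits above; they cover counting error only.

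Members were found by the names of their matches in Swiss-Prot, or in Nr where Swiss-Prot had none, and contigs of 1 protein were summed. Members, related lists and the rules for naming genes were chosen with earlier results of these data known. Named are the 6 most abundant members of each subunit, the 4 highest and 4 lowest contig ratios of at least 5 TPM and the 3 highest and lowest protein sums in each tissue, and proteins of known role. Some members that these rules name are not reported here. With 1 library per group no test was run; calls used a pseudocount of 1 TPM, a minimum of 1 TPM and a log2 ratio of 1, and understate changes of low genes. Intervals of medians are 95% intervals over members from binomial order statistics. Alternatives were other pseudocounts, minima, thresholds, scaling, contig sums and member sets. Python 3.11.15, pandas 2.3.3, numpy 2.4.6, scipy 1.17.1 and matplotlib 3.10.9 were used. No sequence or genome was used.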

Additional observations from a re-analysis of the deposited data

Results flagged for a closer look

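Among the members described here, 5 contigs passed the size rule in opposite directions in the 2 tissues. With 1 library per group this difference was not tested. Opposite calls were not counted over plant-matched genes, so their number is not read as particular to the members. Higher in LP roots and lower in LP shoots were RPS21B of 266 bp (log2 ratios 2.91 and -2.69) and RPL18C of 578 bp (2.03 and -1.19). Lower in LP roots and higher in LP shoots were RPS19A of 345 bp (-5.18 and 3.27), RPS27AA of 505 bp (-1.62 and 2.50) and RPS3A of 885 bp (-1.69 and 1.43). Of these 5, RPS3A alone was above 0 in all 4 libraries, and ratios that include a 0 depend on the pseudocount. RPS3A stood at 31.3 and 8.99 TPM in CK and LP roots and at 0.680 and 3.53 TPM in CK and LP shoots.

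Rows with the same ribosomal protein names but without the plant match lie outside the comparisons and were more numerous without phosphate. At 1 TPM or more there were 464 in LP roots against 139 in CK roots, and 293 in LP shoots against 81 in CK shoots. Assembled genes of all kinds above 0 were also more numerous in LP. They numbered 56647 in LP and 26711 in CK roots, and 50435 and 39046 in LP and CK shoots. The rise is therefore not read as particular to the rows without the plant match. The summed TPM of those rows did not follow: 9247 in LP and 10586 in CK roots, and 7619 and 8215 in LP and CK shoots. Of the 553 rows, the Swiss-Prot match of 113 was a cattle protein, of 79 a baker's yeast protein and of 92 a protein of another land plant. The Nr matches of the same rows most often named the plants Anthurium (260 rows), Hordeum (21) and Noccaea (20), and 9 named no genus. Lacking the plant match here means only no walnut match and no Arabidopsis match. The source of these rows was not tested.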

How the results depend on the processing

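No paired analysis was possible because each group is 1 library; for the same reason no library could be left out. Of the 20 main values (counts of members higher and lower and their median in 4 comparisons, the subunit difference in each, and the subunit ratio in each library), the medians of members kept their sign, and more members were lower than higher, under each alternative run, except in LP against CK shoots at a log2 threshold of 2, where 5 were lower and 5 higher. The large minus small subunit difference of medians ranged from -0.71 to -0.05 in LP against CK roots. In the other comparisons it took both signs, from -0.11 to 0.08 in LP against CK shoots, -0.23 to 0.12 in CK roots against shoots and -0.40 to 0.08 in LP roots against shoots. A pseudocount of 0.1 TPM, no minimum and a minimum of 5 TPM changed no count by over 1.5 times. In the order LP against CK roots, LP against CK shoots, CK roots against shoots and LP roots against shoots, a log2 threshold of 2 left 50, 5, 23 and 57 members lower, and 5 higher in LP shoots. Sums over contigs of 1 protein, of which there are fewer, left 43, 8, 25 and 45 lower and 8, 2, 3 and 6 higher. Members above 0 in both libraries numbered 7, 4, 7 and 11 higher, and members of at least 300 bp 16 higher in LP roots, 8 in CK roots against shoots and 9 in LP roots against shoots. Median scaling moved the median to -0.67 in LP roots, -0.55 in LP shoots and -0.58 in LP roots against shoots. Of 62 ratios of named contigs, scaling took 6 out of the size rule and brought 1 in; the cause of these shifts, other than the scaling itself, was not tested.

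Further member sets were chosen after the data were seen. Adding 92 rows matched to other land plants gave 49, 15, 34 and 39 members higher, 35 lower in LP shoots and 86 lower in CK roots against shoots. The subunit ratio became 0.907 in LP roots and 1.49 in LP shoots. Without 12 members of doubtful match it became 1.35 in CK roots. The added rows were also lower in LP, with 5942 (CK) and 3139 TPM (LP) in roots and 7665 and 5219 TPM in shoots. Contigs listed at 0 and those under 300 bp limit the root comparison most, and no value here covers variation between plants.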
